A study of Mus musculus with 6 samples.

Results

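Fatty acid oxidation was described through 30 listed genes, of which 28 could be measured among the 18194 genes of the arrays. The list was given by name, and each gene was read from 1 probe set, the one with the highest mean log2 signal among those that the platform annotation assigns to a single gene symbol. Cpt1b, the muscle and brown-fat carnitine palmitoyltransferase gene, and Acsl1, the main long-chain acyl-CoA synthetase gene of fat, had no such probe set and are not analysed here. The measured members comprised 17 mitochondrial genes, 9 peroxisomal genes and the pair Eci2 and Crat, whose proteins work in both organelles. Signals came from 6 Affymetrix arrays, 1 for each combination of epididymal, subcutaneous or brown fat with wild type (WT) or whole-body Kdm4b knockout (KO) genotype. All were from male mice aged 2 months, housed at room temperature on a chow diet, from which samples were taken after 6 hours of fasting. Kdm4b encodes a histone demethylase, and the comparison asked which transcripts differ in the fat of mice that become obese without it. Kdm4b is lacking in every tissue, so an effect within adipocytes and one from elsewhere in the body cannot be told apart. The sources used here name neither the strain nor the deleted exons nor the number of mice behind a sample. With 1 array per group a KO over WT difference within a depot has no replicate check.

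Mitochondria break down long-chain fatty acids by joining them to coenzyme A, carrying them across the inner membrane as carnitine esters, and removing acetyl units in a repeated cycle of dehydrogenation, hydration, dehydrogenation and thiolysis. Electrons from the first step pass through the electron transfer flavoprotein to the respiratory chain. Peroxisomes run a parallel cycle on very long and branched chains, with an oxidase that makes hydrogen peroxide, which catalase destroys, and hand shortened chains on to mitochondria as carnitine esters. Brown adipocytes burn fatty acids for heat and are densely packed with mitochondria, whereas white adipocytes mainly store fat.

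The depots carried their own markers. The adipocyte genes Adipoq, Fabp4, Lpl and Lipe were far above the signal floor on every array. Of 10 brown adipocyte markers, 10 were higher in brown fat (limma adjusted p under 0.05), against 21.6% of all genes tested. Their summed signal was 192132 in brown WT and 172055 in brown KO against 16296 to 22295 on the white-fat arrays. The summed signal of 7 mesothelial markers was 9889.6 and 8870.2 in epididymal WT and KO and between 346 and 631 elsewhere. Skeletal muscle transcripts differed between the WT and KO arrays of a depot. The summed signal of 18 muscle markers was 7462 in WT and 3409 in KO epididymal fat, 74716 and 87614 in subcutaneous fat, and 24562 and 1686 in brown fat, where 0 of 18 were at or under the floor in WT and 9 of 18 in KO. Muscle also oxidises fatty acids, so these values are given again beside the genotype differences.

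Mitochondrial members were higher in brown than in white fat almost throughout, while the peroxisomal members were divided. In the limma fit, 16 of 17 mitochondrial members rose in brown fat and 1, Cpt1a, fell. Of 9 peroxisomal members, 4 rose, 1 fell and 4 did not pass the test, and both Eci2 and Crat rose. Over all 13233 genes tested, 21.6% rose and 31.1% fell. In these depot comparisons the WT and KO array of a depot stand in for replicates. The spread behind a p-value is thus how far depot differences vary between the genotypes, together with a spread shared over all genes. The median log2 difference was 1.95 for the mitochondrial members, 0.44 for the peroxisomal members and -0.11 for all genes. All 28 members passed the filter on low signals, and their lowest signal was 519.8, for Cpt1a in brown KO, against a floor of 63.2. The signals of both brown-fat arrays lay above those of all 4 white-fat arrays for 23 of 28 members and below them for 2, against 26.1% and 34.9% of all genes tested. In bulk tissue, more cells of a type and more RNA per cell cannot be told apart.

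**Figure D1:**
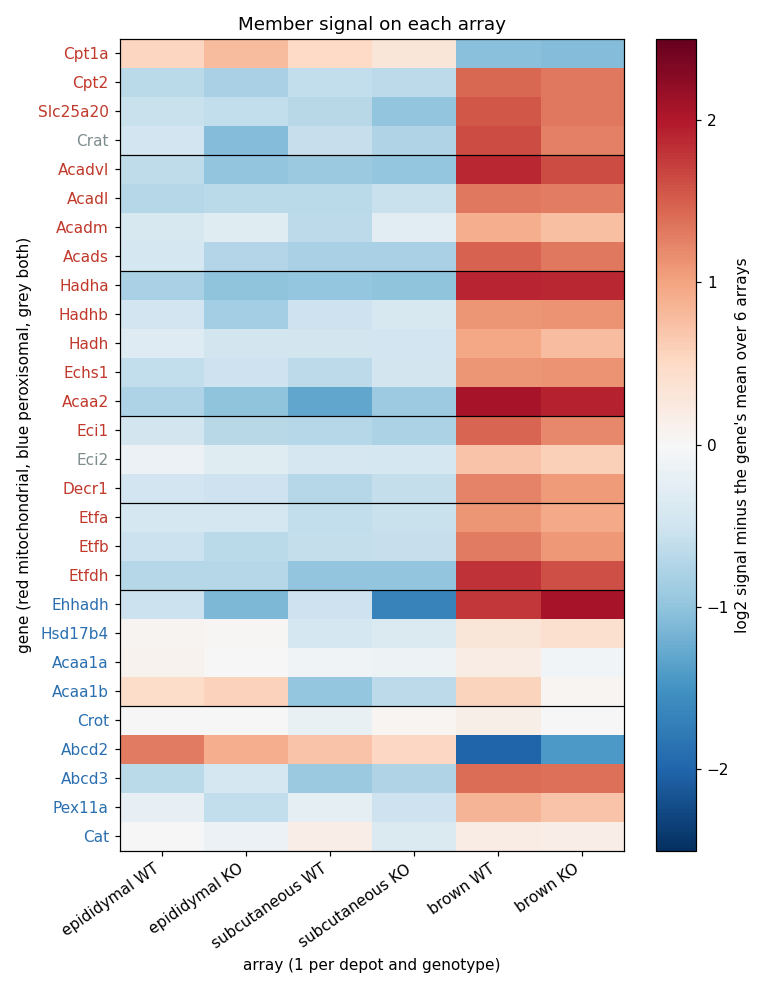
Log2 signal of the 28 measured members on the 6 arrays, each gene shown relative to its own mean over the arrays (red above, blue below) and grouped by role from carnitine transport at the top to peroxisomal genes at the bottom. The columns of brown fat are red for 16 of 17 mitochondrial genes and blue for Cpt1a and Abcd2.

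Entry into mitochondria was represented by 4 genes. Cpt1a, which encodes the liver-type enzyme that makes acylcarnitines at the outer membrane, had signals of 1593 (WT) and 1909 (KO) in epididymal, 1565 and 1357 in subcutaneous and 537 and 519.8 in brown fat. Both brown-fat signals were well below the lowest white-fat signal, and Cpt1a fell 3.02-fold in brown fat (limma adjusted p = 0.00106). Slc25a20, the carnitine-acylcarnitine carrier of the inner membrane, went the other way, with signals between 4950.0 and 6614 on the white-fat arrays and 28482 (WT) and 24231 (KO) on the brown-fat arrays. Cpt2, which turns acylcarnitines back into acyl-CoA in the matrix, lay between 3715 and 4266 on the white-fat arrays and 17519 (WT) and 16256 (KO) on the brown-fat arrays. The 2 genes rose 4.42-fold and 4.19-fold (limma adjusted p = 0.000457 and 0.000448). Crat, whose acetyltransferase buffers acetyl-CoA with carnitine, had signals of 2471 (WT) and 1616 (KO) in epididymal, 2309 and 2058 in subcutaneous and 10649 and 8303 in brown fat, a 4.50-fold rise in brown fat with no overlap of the arrays (limma adjusted p = 0.000541).

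The acyl-CoA dehydrogenases, which start each turn of the cycle, rose in brown fat at every chain length measured. Acadvl, for very long chains, had signals of 6038 (WT) and 4731 (KO) in epididymal, 4950.4 and 4799.8 in subcutaneous and 34751 and 28971 in brown fat, a 6.22-fold rise (limma adjusted p = 0.000436). Acadl, for long chains, had signals between 10026 and 11112 on the white-fat arrays and 40929 (WT) and 39573 (KO) on the brown-fat arrays, and Acads, for short chains, between 2604 and 3349 on the white-fat arrays and 12726 (WT) and 11366 (KO) on the brown-fat arrays. These were rises of 3.86-fold and 4.28-fold. Acadm, the medium-chain enzyme, had the smallest rise of the 4 at 2.38-fold, with signals between 14263 and 18469 on the white-fat arrays and 42349 (WT) and 38065 (KO) on the brown-fat arrays (limma adjusted p = 0.00246).

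The later steps followed. Hadha and Hadhb encode the alpha and beta subunits of the trifunctional protein, which carries out the last steps for long chains on the inner membrane. Hadha had signals of 2161 (WT) and 1870.2 (KO) in epididymal, 1929 and 1893 in subcutaneous and 14093 and 14029 in brown fat, a log2 difference of 2.84 ± 0.12 (SE) between brown and white fat. Its partner Hadhb had signals between 8936 and 12168 on the white-fat arrays and 34357 (WT) and 35017 (KO) on the brown-fat arrays, a log2 difference of 1.67 ± 0.15 (SE) by the brightest probe set. A further Hadhb probe set, not marked as prone to cross-hybridise, gave 2.11, so the probe sets of Hadhb disagreed in size and not in direction. Acaa2, the mitochondrial thiolase that releases acetyl-CoA, rose 7.95-fold, with signals of 5574 (WT) and 4710.2 (KO) in epididymal, 3881 and 5033 in subcutaneous and 39450.3 and 36248 in brown fat (limma adjusted p = 0.00045). Echs1, the short-chain hydratase gene, had signals between 6632 and 7646 on the white-fat arrays and 22589.5 (WT) and 22939 (KO) on the brown-fat arrays, and Hadh, the hydroxyacyl-CoA dehydrogenase gene of medium and short chains, between 19373 and 21827 on the white-fat arrays and 52867 (WT) and 46035 (KO) on the brown-fat arrays. Their rises were 3.20-fold and 2.45-fold (limma adjusted p = 0.000626 and 0.0011).

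Enzymes that handle the double bonds of unsaturated fatty acids also rose. Eci1, the mitochondrial enoyl-CoA isomerase gene, had signals between 5645 and 7155 on the white-fat arrays and 27014 (WT) and 22666 (KO) on the brown-fat arrays. Decr1, the mitochondrial dienoyl-CoA reductase gene, had signals between 7136 and 8422 on the white-fat arrays and 27638 (WT) and 24497 (KO) on the brown-fat arrays. Eci2, the isomerase found in peroxisomes and mitochondria, had signals between 4013 and 4873 on the white-fat arrays and 8882 (WT) and 8239 (KO) on the brown-fat arrays. The rises were 3.99-fold, 3.30-fold and 1.98-fold (limma adjusted p = 0.000484, 0.000666 and 0.00233), the smallest being that of the isomerase shared between organelles. The electron transfer flavoprotein subunits Etfa and Etfb had rises of 2.91-fold and 3.46-fold, with Etfa between 7159 and 8062 on the white-fat arrays and 23452 (WT) and 21115 (KO) on the brown-fat arrays and Etfb between 7259.6 and 7954 on the white-fat arrays and 28558 (WT) and 24575 (KO) on the brown-fat arrays. Etfdh, the membrane dehydrogenase that passes their electrons to ubiquinone, rose 5.89-fold (limma adjusted p = 0.000436), from signals of 4063 (WT) and 4080.3 (KO) in epididymal, 3376 and 3362 in subcutaneous and 23426 and 20313 in brown fat.

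Peroxisomal members spread from a rise as large as those of the mitochondrial genes to a clear fall. Ehhadh, the L-bifunctional enzyme gene that hydrates and dehydrogenates straight and dicarboxylic chains, had signals of 1769.9 (WT) and 1168 (KO) in epididymal, 1784 and 804 in subcutaneous and 8744 and 10706 in brown fat. It rose 7.37-fold in brown fat (limma adjusted p = 0.00149), with the widest error of the members, 2.88 ± 0.30 (SE) on the log2 scale. Hsd17b4, the D-bifunctional enzyme gene for very long and branched chains, lay between 5212 and 7365 on the white-fat arrays and 8657 (WT) and 9297 (KO) on the brown-fat arrays. Its rise of 1.44-fold passed narrowly (limma adjusted p = 0.0179). It did not pass after quantile normalization (limma adjusted p = 0.193, log2 difference 0.22), nor with either brown-fat array, either epididymal array or subcutaneous WT left out (limma adjusted p from 0.0511 to 0.0905).

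The peroxisomal thiolases did not pass the test between brown and white fat. Acaa1a had signals of 1020.1 (WT) and 966 (KO) in epididymal, 900.0 and 879 in subcutaneous and 1099 and 921 in brown fat, a log2 difference of 0.10 ± 0.13 (SE) (limma adjusted p = 0.541). Both Acaa1a probe sets are of a kind that can also bind related transcripts, and Acaa1b is a close copy, so the 2 genes are uncertain. Acaa1b, the copy known to follow peroxisome proliferators, had signals of 5166 (WT) and 5659 (KO) in epididymal, 1920.0 and 2399 in subcutaneous and 5519 and 3885 in brown fat. The brown-fat signals lay within the range of the white ones, with epididymal fat as high as brown, and the log2 difference was 0.44 ± 0.20 (SE) (limma adjusted p = 0.125). Acaa1b passed after median centring (limma adjusted p = 0.0491), with an intensity trend (limma adjusted p = 0.0376) and without brown KO (limma adjusted p = 0.0305, log2 difference 0.81).

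Transporters and peroxisome growth genes moved apart. Abcd3, the most abundant fatty acyl-CoA importer of the peroxisome membrane in many tissues, had signals of 5296 (WT) and 6222 (KO) in epididymal, 4446 and 4999 in subcutaneous and 22023 and 21811 in brown fat and rose 4.21-fold (limma adjusted p = 0.000486). Abcd2, a related importer for very long and polyunsaturated chains, had signals of 6252 (WT) and 4788 (KO) in epididymal, 4168 and 3678 in subcutaneous and 637 and 945 in brown fat. It fell 5.96-fold in brown fat (limma adjusted p = 0.000903), the only peroxisomal member to fall, and its 4 probe sets had log2 differences from -0.91 to -2.58, the smallest from a dim one at or under the floor in brown fat. Pex11a, which promotes peroxisome division, rose 2.26-fold, from signals between 1204 and 1608 on the white-fat arrays and 3347 (WT) and 3054 (KO) on the brown-fat arrays. Crot, which makes carnitine esters of the shortened chains, had signals of 1686 (WT) and 1709 (KO) in epididymal, 1488 and 1765 in subcutaneous and 1877 and 1692 in brown fat, and the brown and white arrays overlapped (log2 difference 0.10 ± 0.14 (SE), limma adjusted p = 0.563). Cat, the catalase gene, had signals of 17628 (WT) and 15922 (KO) in epididymal, 19709 and 13753 in subcutaneous and 20068 and 19861 in brown fat and a log2 difference of 0.27 ± 0.15 (SE) (limma adjusted p = 0.203).

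**Figure D2:**
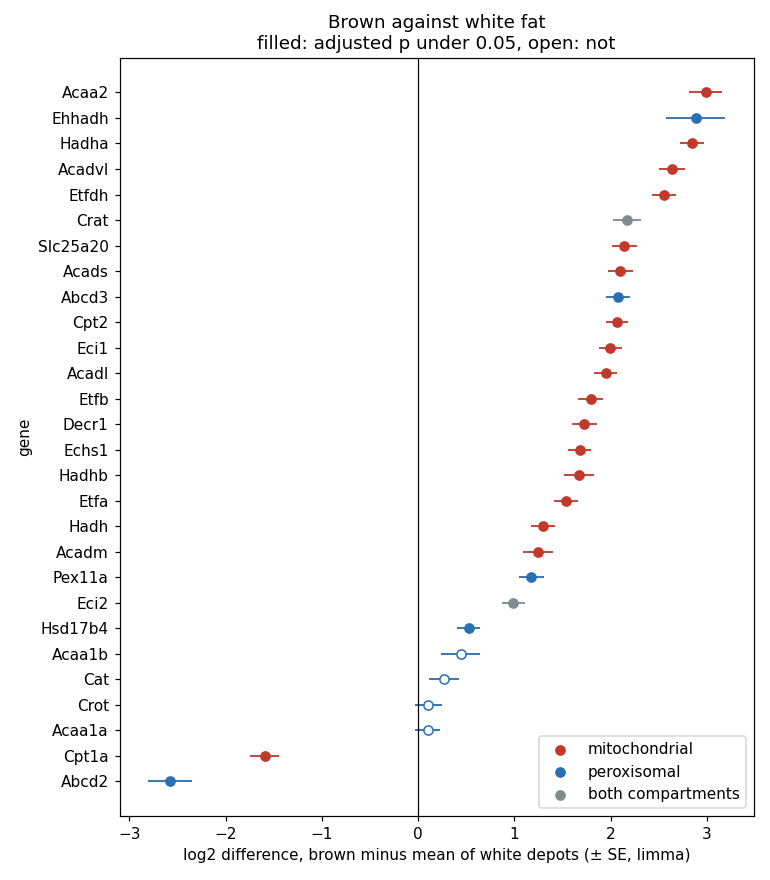
Log2 difference between brown fat (2 arrays) and the mean of the white depots (4 arrays) for each of 28 members, with the SE of the limma fit, coloured by compartment; filled points passed at an adjusted p under 0.05. Mitochondrial genes lie between 1.25 and 2.99 except Cpt1a at -1.59, and peroxisomal genes between -2.58 and 2.88.

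The gap between the compartments was seen in both genotypes. The mitochondrial median of the brown over white log2 difference was 2.01 in WT and 1.89 in KO arrays, and the peroxisomal median was 0.48 and 0.43. The medians thus differed by 1.51 between compartments over both genotypes. After quantile normalization this difference was 1.06. It also depends on which genes are listed. In the further gene lists below, the medians lay closer together, at 1.47 for mitochondrial and 1.02 for peroxisomal genes. Against the mean of the white depots, 16 of 18 muscle markers had a lower value in brown fat, 3 of them past the test (limma adjusted p under 0.05). Of all genes tested, 31.1% passed as lower. In WT the summed muscle signal in brown fat, 24562, lay between those of epididymal, 7462, and subcutaneous fat, 74716. Macrophage markers were lower in brown fat for 9 of 9 genes and B cell markers for 5 of 5, and the part of muscle and these other cells in the differences was not tested.

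Promoter windows from RefSeq (GRCm38.p6, 250 bases before to 50 after the start site) were available for 23 of the 28 members, in 24 windows, and are described because most of these genes rose in brown fat. Hadha and Hadhb lie head to head on chromosome 5, with 273 bases between their start sites, so their windows overlap by 228 bases and 1 stretch of DNA precedes both. Windows of 3 genes that rose and of Ehhadh, the member with the largest genotype difference, are printed below in the direction of transcription. Capitals mark the GC box GGGCGG or its reverse complement for Hadha and Ehhadh, the nuclear receptor half-site AAGGTCA (here as its reverse complement) for Acadm, and for Etfdh the palindromic motif of NRF1, a regulator of many respiratory genes.
Hadha, chr5:30154931-30155230, minus strand: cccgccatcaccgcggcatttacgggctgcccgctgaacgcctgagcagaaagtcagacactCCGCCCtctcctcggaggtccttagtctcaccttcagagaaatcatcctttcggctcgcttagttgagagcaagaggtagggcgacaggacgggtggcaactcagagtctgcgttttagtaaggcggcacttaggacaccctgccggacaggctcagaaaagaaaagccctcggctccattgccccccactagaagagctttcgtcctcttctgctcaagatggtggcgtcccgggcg
Acadm, chr3:153944594-153944893, minus strand: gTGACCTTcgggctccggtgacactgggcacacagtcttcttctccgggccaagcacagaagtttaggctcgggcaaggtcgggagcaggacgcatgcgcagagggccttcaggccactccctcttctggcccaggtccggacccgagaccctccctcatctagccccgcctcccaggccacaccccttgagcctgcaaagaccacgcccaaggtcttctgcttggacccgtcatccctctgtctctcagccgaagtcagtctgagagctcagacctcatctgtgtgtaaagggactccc
Etfdh, chr3:79628718-79629017, minus strand: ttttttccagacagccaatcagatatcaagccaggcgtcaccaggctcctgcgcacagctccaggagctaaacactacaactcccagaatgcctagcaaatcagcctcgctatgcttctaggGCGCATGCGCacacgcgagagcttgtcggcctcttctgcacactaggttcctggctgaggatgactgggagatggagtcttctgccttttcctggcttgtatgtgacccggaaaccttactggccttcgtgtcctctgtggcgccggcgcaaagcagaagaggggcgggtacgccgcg
Ehhadh, chr16:21787785-21788084, minus strand: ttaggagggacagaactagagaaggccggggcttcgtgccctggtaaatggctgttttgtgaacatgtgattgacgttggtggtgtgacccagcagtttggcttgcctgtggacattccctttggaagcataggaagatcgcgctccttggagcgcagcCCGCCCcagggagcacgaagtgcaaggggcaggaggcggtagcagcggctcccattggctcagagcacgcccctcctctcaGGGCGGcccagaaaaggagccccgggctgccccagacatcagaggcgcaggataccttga
Each motif was searched on both strands of 32851 windows of all genes. The PPAR and RXR element, a direct repeat of AGGTCA with 1 base between, was in 0 of the 24 member windows and in 0.0396% of all windows, and the looser repeat of AGGNCA in 0 and 0.381%. The estrogen-related receptor motif TCAAGGTCA was in 0 member windows and 0.423% of all. Its shorter part AAGGTCA, which every longer match also holds, was in 1, that of Acadm, and in 4.72% of all. The NRF1 motif was in 1, that of Etfdh, and 0.971% of all, and its looser form, with any base in place of the first A, in 3, those of Etfdh, Etfb and Abcd3, and 4.60% of all. The GC box GGGCGG was in 18 of 24 member windows and 35.7% of all. The member windows had a median GC content of 61.0%, against 52.7% for all windows, with 60.7% for mitochondrial and 61.3% for peroxisomal members.

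Other genes of the pathway, from lists that do not overlap the members, were mostly higher in brown fat as well. The counts below stand against 21.6% of all genes tested that rose and 31.1% that fell. Of 19 further genes of mitochondrial oxidation and related acyl-CoA breakdown, 17 rose and 1, the ketone body gene Bdh1, fell in brown fat. Bdh1 was near the floor, at 72.9 (WT) and 51.7 (KO) in brown and 76.7 and 68.7 in epididymal fat. Its subcutaneous signals were 149.3 and 172.5, so its fall came mainly from that depot. The largest rises were those of Slc25a42, a mitochondrial coenzyme A carrier, at 9.70-fold, Pccb at 3.74-fold and Mcee, which with Pccb handles propionyl-CoA from odd chains, at 3.62-fold. Of 16 further peroxisomal genes, 13 rose, led by Slc27a2, a very long-chain acyl-CoA synthetase, at 45.2-fold, Phyh, of branched-chain alpha-oxidation, at 3.57-fold, and the racemase gene Amacr at 3.46-fold. The median was 1.02, above that of the 9 peroxisomal members. Peroxisome biogenesis genes had 7 of 12 members risen and a median of 0.71, with Pex6 at 2.27-fold, Pex14 at 2.17-fold and the import receptor gene Pex5 at 2.05-fold.

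Among 16 regulators, 11 rose and 2 fell in brown fat, against 21.6% and 31.1% of all genes tested. Ppara, the fatty acid receptor that drives oxidation genes, had signals of 349 (WT) and 241 (KO) in epididymal, 348 and 314 in subcutaneous and 4346 and 4241 in brown fat, a rise of 13.9-fold (limma adjusted p = 0.000436). The coactivator gene Ppargc1a, also among the brown adipocyte markers, rose 10.5-fold. Acacb, whose product malonyl-CoA inhibits carnitine palmitoyltransferase, rose 9.76-fold. Nrip1, a corepressor of oxidation genes, fell 3.97-fold and Rxra, a partner receptor of the PPARs, 1.96-fold (limma adjusted p = 0.000639 and 0.00311).

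**Figure D3:**
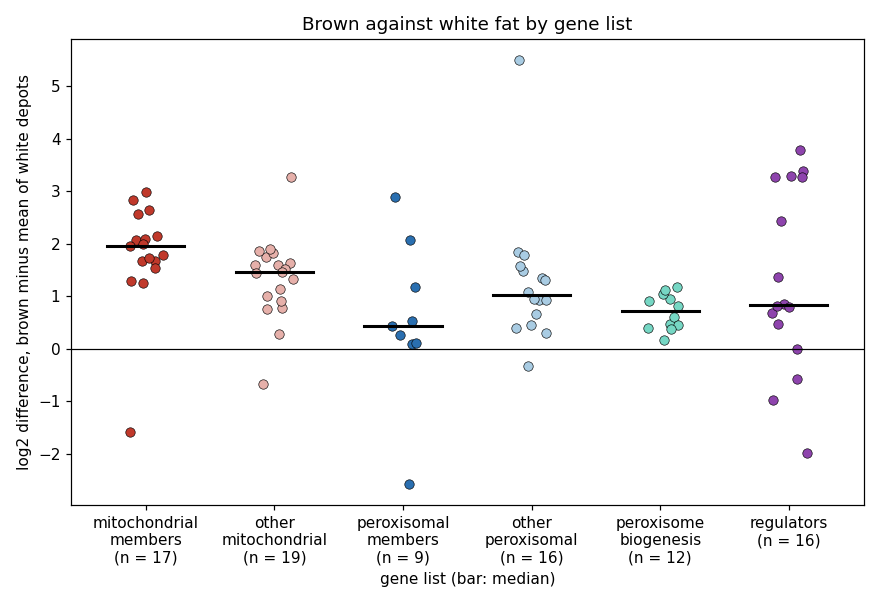
Log2 difference between brown fat and the mean of the white depots for each gene (points) of the members by compartment and of 4 further gene lists, with medians as bars. The medians are 1.95 and 1.47 for both mitochondrial lists, 0.44 and 1.02 for both peroxisomal lists, 0.71 for peroxisome biogenesis and 0.84 for regulators.

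Between subcutaneous and epididymal fat, 1 of 28 members passed, a share near that of all genes, of which 3.88% were higher and 1.16% lower in subcutaneous fat. Acaa1b fell 2.52-fold in subcutaneous fat (log2 difference -1.33 ± 0.24 SE, limma adjusted p = 0.0465), and both of its subcutaneous signals, 1920.0 and 2399, were below both epididymal ones, 5166 and 5659. With either epididymal or either subcutaneous array left out, Acaa1b did not pass (limma adjusted p from 0.0529 to 0.262), and Hsd17b4 passed as well after median centring or with an intensity trend (limma adjusted p = 0.0346 and 0.024). For the mitochondrial members the differences ran from -0.27 for Etfdh to 0.20 for Hadhb, 12 of 17 being lower in subcutaneous fat.

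Between KO and WT, most members differed by less than 1.5-fold in every depot, and 0 of 28 passed over the depots. With depot as a term in limma, 0 of 13233 genes passed at an adjusted p under 0.05 (0%). At an unadjusted p under 0.05, 1 of 28 members, Crat, and 8.33% of all genes passed. The depots stand in for replicates there. A p-value compares a gene's mean difference with a spread that limma draws from 2 sources. These are the gene's own differences from depot to depot and the spread shared over all genes tested. The smallest adjusted p among the members was 0.591, for Crat. Within the depots, the members' median log2 difference was -0.13 for epididymal, -0.01 for subcutaneous and -0.14 for brown fat, beside -0.02, 0.04 and -0.03 for all genes measured there. The spread between probe sets of one gene, the only spread available within a depot, was an SD of 0.31, 0.32 and 0.33 on the log2 scale. It comes from the same 2 arrays, so it holds no variation between animals or between arrays. Centring the arrays on their median moved the median of all genes to 0.11, -0.12 and 0.11, and the members to 0.01, -0.16 and -0.003. Relative to all genes, the members' median was -0.11, -0.05 and -0.11 as deposited and -0.10, -0.04 and -0.11 after centring. Signs of small differences thus shift with the centring. Centring moves all genes of an array alike, so it could hardly alter the position of the members among them. That position was -0.145, 0.0 and -0.086 after quantile normalization. With the mean of all probe sets it was -0.054, -0.043 and -0.107.

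In brown fat, 23 of 28 members had a lower signal in the KO array, 15 of them among the 17 mitochondrial genes, against 53.6% of all genes measured. These counts were 14 and 10 after median centring and 19 and 13 after quantile normalization. The median of all genes was then 0.11 and 0.0. The mitochondrial differences were small, from -0.26 for Acadvl to 0.03 for Hadhb with a median of -0.15, and each lay within the SD between probe sets. Etfa, Etfb and Etfdh differed by -0.15, -0.22 and -0.21, and Slc25a20, Eci1 and Hadh by -0.23, -0.25 and -0.20. Peroxisomal members had a median of -0.01 (6 of 9 lower), with Acaa1b at -0.51 and Abcd2 at 0.57 at the ends of the range. No member reached 1.5-fold, which 4.82% of genes exceeded upwards and 8.85% downwards. Muscle markers were lower in brown KO for 18 of 18 genes, with a median of -3.32, and brown adipocyte markers for 8 of 10, with a median of -0.14. General adipocyte markers were lower for 6 of 8 and higher for 2 (median -0.26). Macrophage markers were lower for 9 of 9 (median -0.20), and seminal vesicle transcripts were higher for 6 of 6 (median 0.38). The part of these transcripts in the members' differences was not tested.

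In epididymal fat, 20 of 28 members were lower in the KO array, against 53.3% of all genes, and 2 were lower by at least 1.5-fold, against 6.50% of all genes lower and 4.37% higher by that much. Crat, with signals of 2471 in WT and 1616 in KO, was 1.53-fold lower, and Ehhadh 1.51-fold lower, from 1769.9 to 1168. A second Crat probe set differed by -0.36 and another, dimmer one by 0.19. Pex11a (-0.42), Abcd2 (-0.39), Hadhb (-0.37, and -0.10 by its other bright probe set) and Acadvl (-0.35) came next, while Cpt1a (0.26) and Abcd3 (0.23) were the highest. The medians were -0.13 for mitochondrial and -0.08 for peroxisomal members. Brown adipocyte markers were lower in this KO array for 7 of 10 genes (median -0.42) and muscle markers for 16 of 17 measured (median -1.15), and macrophage markers were higher for 9 of 9 (median 0.27). General adipocyte markers were lower for 7 of 8 and higher for 1 (median -0.10). Seminal vesicle transcripts were lower for 5 of 6 (median -0.65). Their summed signal was 5121.5 (WT) and 3607.9 (KO) in epididymal, 9196.6 and 2029.9 in subcutaneous and 2367.0 and 3080.2 in brown fat. The part of all these transcripts in the members' differences was not tested. After median centring 13 of 28 members were lower by any amount and 0 by 1.5-fold. After quantile normalization 21 were lower by any amount.

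In subcutaneous fat the members were divided, 16 lower and 12 higher in the KO array, against 45.3% of all genes lower. Ehhadh alone passed 1.5-fold, 2.22-fold lower from 1784 to 804, against 3.74% of all genes lower and 8.71% higher. Cat was 1.43-fold lower, from 19709 to 13753, and its other probe set differed by -0.40. Acaa2 (0.38) and Acadm (0.37) were the highest, followed by Acaa1b (0.32). The mitochondrial median was -0.01 and the peroxisomal -0.03. After quantile normalization the median of the members and that of all genes were both 0.02, and 10 of 28 members were lower. After median centring 22 were lower. At 2-fold, Ehhadh in subcutaneous fat was the only member past the line. The shares of all genes at 2-fold, higher and lower, were 0.870% and 1.41% in epididymal, 2.20% and 0.722% in subcutaneous and 1.10% and 2.43% in brown fat. Muscle markers were higher in this KO array for 15 of 18 genes and lower for 3 (median 0.23). The 3 at least 1.5-fold higher were Myh1 (151 to 3203), Mb (81 to 1637) and Myh2 (54.9, under the floor, to 782). By that fold 1 was lower. Brown adipocyte markers were lower for 6 of 10 (median -0.10), with Ucp1 from 2934 to 1428 and, in the other direction, Otop1 from 367 to 1284. General adipocyte markers were divided, 4 lower and 4 higher (median 0.02). Macrophage markers were lower for 9 of 9 (median -0.51). Seminal vesicle transcripts were lower for 6 of 6 (median -1.99). The part of all these transcripts in the members' values was not tested.

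**Figure D4:**
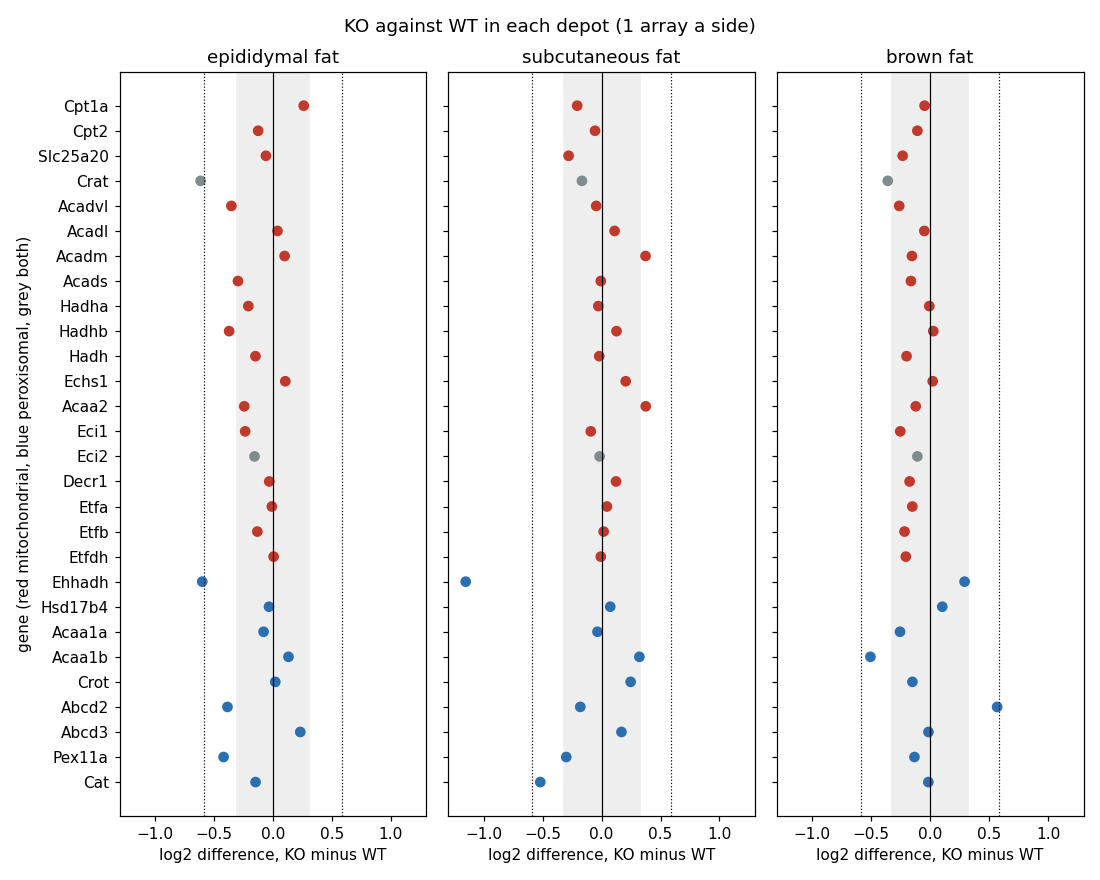
Log2 difference between the KO and the WT array in epididymal, subcutaneous and brown fat for each of 28 members, coloured by compartment. The grey band is the SD between probe sets of one gene (0.31, 0.32 and 0.33), dotted lines mark 1.5-fold, and the points beyond them are Crat and Ehhadh in epididymal and Ehhadh in subcutaneous fat.

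Across the depots, 12 of 28 members were lower in all 3 KO arrays and 1, Echs1, was higher in all 3, against 17.2% and 16.2% of genes measured in every depot. The 12 were Cpt2, Slc25a20, Acadvl, Acads, Hadha, Hadh, Eci1, Eci2, Crat, Acaa1a, Pex11a and Cat. These counts hold for the scaling as deposited and for 1 probe set per gene. Crat had the smallest p, at -0.61, -0.17 and -0.36 (epididymal, subcutaneous, brown), a mean of -0.38 ± 0.14 (SE of the limma fit, adjusted p = 0.591). In the same order, its second probe set differed by -0.36, -0.14 and 0.09 and its dimmest by 0.19, 0.03 and 0.43. Only the brightest Crat probe set was thus lower in all 3 KO arrays. Among the other genes named, a further Slc25a20 probe set was higher in epididymal KO (0.08). In subcutaneous KO further probe sets were higher for Acaa1a (0.02), Cpt2 (0.75, a dim one) and Hadh (0.05, and 1.84 by a dim one). Those of Pex11a and Cat were lower in all 3, and the rest had 1 probe set each. Ehhadh, at -0.60, -1.15 and 0.29, and Abcd2, at -0.39, -0.18 and 0.57, were lower in both white depots and higher in brown fat, and Acaa1b, at 0.13, 0.32 and -0.51, was the reverse. A term for a KO effect of its own in brown fat, added after seeing the data, gave differences between brown and white of 1.17 ± 0.33 (SE) for Ehhadh, 0.85 ± 0.26 for Abcd2 and -0.73 ± 0.25 for Acaa1b. None of the 28 passed (limma adjusted p = 0.549, 0.564 and 0.594 for these 3, unadjusted p = 0.024, 0.0275 and 0.0425), and over all genes 0% passed and 8.15% had an unadjusted p under 0.05.

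The further genes of the pathway held a few larger genotype differences. In epididymal fat, Acad10 (-0.65), Acadsb (-0.59), the short branched-chain acyl-CoA dehydrogenase gene, the peroxisomal assembly genes Pex19 (-0.81) and Pex3 (-0.61), and the regulators Acacb (-1.05) and Ppargc1a (-0.77) were lower. In subcutaneous fat, Slc27a2 (-1.66) and Hacl1 (-0.77), of branched-chain oxidation, were lower, as was Ehhadh above. Slc27a2 and Ehhadh were thus both more than 2-fold lower there, while in brown fat Slc27a2 was lower (-0.99) and Ehhadh higher (0.29). Pex10 (0.65) was higher, and the oxidase genes Acox2 and Acox3 and the receptor gene Esrrg were at least 1.54-fold, 2.18-fold and 2.83-fold higher, with the WT array at or under the floor. In brown fat, Klf15 (-1.06), a transcription factor gene that responds to fasting, Esrrb (-0.86), Pex6 (-0.69) and the carnitine importer gene Slc22a5 (-0.67) were lower, and Acox2 was 2.01-fold higher, from 127 to 255. In epididymal fat Acox3 was 1.61-fold and Esrrb at least 1.53-fold higher. These differences are between single arrays, and of the low-signal genes Acox2, Acox3, Esrrb and Esrrg, none exceeded 179 in signal in white fat.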

How the data were processed

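The authors deposited Affymetrix intensity values made with MAS5 in Affymetrix Expression Console, per the submitters' processing notes. The sources used here give no versions. MAS5 treats each array alone, and each array was scaled to a 2%-trimmed mean intensity of 500.0 as deposited, which hides changes in total RNA. No column was left out.

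Of 45037 non-control probe sets, 34945 had 1 gene symbol, 932 several and 9160 none, by the platform annotation. With 13 control probe sets they named 18194 genes, and 0 symbols changed on lookup in RefSeq (GRCm38.p6). Intensities were raised to a floor of 63.2, the 40th percentile, and put on the log2 scale. The fit in limma 3.58.1 under R 4.3.3 took 13233 genes, those exceeding the floor in 3 or more arrays, with depot and genotype as terms and Benjamini-Hochberg adjustment over all of them. It was tested on simulated data. Within a depot there was no test, and genes measured there had at least 1 array above the floor. The members and gene lists were chosen with earlier results of these data known. Named genes followed a fixed rule: members, and further genes at least 1.5-fold different or among the 3 largest brown over white folds of their list. Second probe sets were chosen for mention after their values were seen. Python 3.11.15 with pandas 2.3.3, numpy 2.4.6 and matplotlib 3.10.9 served for the rest. The number of arrays limits the precision.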

Additional observations from a re-analysis of the deposited data

Results flagged for a closer look

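Ehhadh differed in direction between depots. Its KO array was lower in epididymal (log2 difference -0.60) and subcutaneous fat (-1.15) and higher in brown fat (0.29), with 1 probe set and 1 array a side. The brown-fat difference alone is smaller than the SD between probe sets in that depot, 0.33. The difference between the KO effect in brown fat and that in white fat, a term added after seeing the data, was 1.17 ± 0.33 (SE) and did not pass in the limma fit (adjusted p = 0.549).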

How the results depend on the processing

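The 24 calls between brown and white fat, 22 higher and 2 lower, stayed within 1.5 times under every alternative run (other scalings, floors, probe set rules, no filter, an intensity trend and each array left out), with the changes for Hsd17b4 and Acaa1b given above. The difference of compartment medians was 1.063 after quantile normalization. Between the white depots, the 1 call became 2 after median centring or with an intensity trend, 0 with the floor at the 20th percentile or with no filter, and 0 to 1 with an array left out. For genotype, 0 members were called under any alternative run. At 2-fold in place of 1.5-fold, 0 members were past it in epididymal fat. After median centring 0 were lower in epididymal, 2 lower in subcutaneous (Ehhadh and Cat) and 1 higher in brown fat (Abcd2). With the mean of all probe sets, 1 was lower in epididymal (Ehhadh), 1 higher in subcutaneous (Hadh, 0.62) and 1 lower in brown fat (Cpt2, -0.94), and Crat in epididymal fat was -0.26. The Hadh and Cpt2 values came mainly from 1 dim probe set each, at 1.84 and -1.76. The brighter probe sets were at -0.02 and 0.05 for Hadh and at -0.11 for Cpt2. Cross-hybridising probe sets left out, 26 members could be measured. The genotype fit already compares the KO and WT array within each depot. No paired analysis was possible because the labels give no replicate numbers that would pair arrays by animal. Weak signals near the floor limit the low-level genes, and no array has a replicate.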
